A study of Homo sapiens with 14 samples.

Results

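The genes described here encode the proteins of the cytosolic ribosome. Their RNA was read in MM1S, an established cell line from a human multiple myeloma, treated for 6 h. Members were chosen by symbol: RPL or RPS followed by a number, with RPLP0, RPLP1, RPLP2 and RPSA, and without RPS6 kinases, the -like genes RPL22L1, RPL26L1, RPL39L and RPS27L, and pseudogenes. A probe set annotated to such a symbol alone was found for 57 genes. Of these, 54 passed the filter on low values (a log2 level of at least 4 on at least 2 arrays), among 9301 of 19775 named genes that did so. They comprise 20 small subunit and 34 large subunit genes. The rule also takes in 3 paralogs that are not part of the standard set, RPL7L1, RPL10L and RPL36AL, which leaves 51 standard members. RPL3L and RPL36A were among the members below the filter. Another 12 ribosomal protein genes were represented only by probe sets that share their annotation with small RNAs, and those probe sets are left unnamed. RPL5, RPL10, RPL23, RPLP0, RPSA, RPS26 and RPS27A were not analysed here.

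The 14 arrays form 7 groups of 2. Cells were left untreated or received 1 nM salmeterol, 12.5 nM CGS-21680, or dexamethasone at a low (25 nM) or high (2 µM) dose, and in the remaining groups each agonist was given along with low dexamethasone. Salmeterol activates the beta-2 adrenergic receptor, CGS-21680 activates the adenosine 2A receptor, and both signal through cyclic AMP. Glucocorticoids such as dexamethasone are used against myeloma. All groups are cultures of a single cell line without a transgene, and the labels call the replicates biological without saying how cultures were separated, so the spread behind each p-value is that of these samples and may be technical.

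Each ribosome carries a single copy of nearly every ribosomal protein, so cells make these proteins in balanced amounts, and a plasma cell line that secretes or assembles much protein depends on them heavily. Control is largely at the level of translation. Most of the messenger RNAs begin with a cytosine followed by a run of pyrimidines, the 5′ terminal oligopyrimidine (TOP) motif. Through this motif the mTOR pathway and the RNA-binding protein LARP1 switch translation of these RNAs on and off. Such a switch can occur without a change in RNA level. An array measures RNA level alone.

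The annotated transcription start is printed for 8 members because it shows a feature that most of the group shares. RPL7L1, the member with the clearest change, lacks it. So do uncalled members, such as RPL11 with an A and RPL19 with a G at the annotated start. A link between start and response was not tested. Each line gives 12 bases before the RefSeq start and the 18 bases from the start onward, 5′ to 3′ on the gene's strand, in build GRCh38.p14. Capitals mark the unbroken run of C and T that begins at the start itself.
RPS6, chr9:19380219-19380248, minus strand: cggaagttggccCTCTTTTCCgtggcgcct
RPS24, chr10:78033851-78033880, plus strand: cgaatcgtggttCTCTTTTCCTCCTTggct
RPS25, chr11:119018326-119018355, minus strand: gagcagcgcttcCTTTTTgtccgacatctt
RPL14, chr3:40457327-40457356, plus strand: cgggtcttcttcCTTCTCgcctaacgccgc
RPL41, chr12:56116621-56116650, plus strand: aacttcgcctttCTCTCggccttagcgcca
RPLP2, chr11:809955-809984, plus strand: cgtcggcgccttCCTTTTCCTCCCTgtcgc
RPS28, chr19:8321484-8321513, plus strand: ccgaagcacgtgactcctctccgccagacc
RPL7L1, chr6:42879604-42879633, plus strand: aagtgcggcgccgtagctaggagcggacgc

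Of the 54 members, 48 had an entry among 15843 RefSeq promoters of protein-coding genes. The start base was C in 36 of the 48 (75%), against 11.3% of all promoters. A C followed by at least 4 further pyrimidines was present in 32 of the 48 (66.7%), against 4.6% of all. RPL7L1 has a G at its annotated start, and RPS28 has an A directly followed by a pyrimidine run. Annotated starts can lie a few bases from the start used by a cell: a run of at least 6 C or T starting within 5 bases of the annotated start was present in 37 of the 48 (77.1%), against 14.5% of all.

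Short motifs were searched on both strands of the 300 bases from 250 before to 50 after the start. CCGGAAG, a core bound by ETS factors such as GABP, was present in 18 of 48 members (37.5%) and in 14.2% of all promoters. The cyclic AMP response element TGACGTCA was present in 3 of 48 (6.25%), RPL3, RPL18 and RPLP2, and in 2.59% of all promoters. Its shorter core TGACG, which also counts every full element, was present in 21 of 48 (43.8%) and in 29.5% of all. The motif TATAAA was present in 4 of 48 (8.33%), against 9.63% of all. These are matches of letters and were not tested as binding sites.

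The deposited values were compared as log2 intensities. Array medians over all tested genes ran from 7.437 to 7.631. Across genes, the correlation between replicates was 0.9868 to 0.9919. The 2 salmeterol arrays had the lowest medians, 0.126 log2 units below the untreated arrays on average. The difference between the 3′ and 5′ control probe sets, a sign of RNA integrity and labelling, was lowest for GAPDH on high dexamethasone replicate 2 (0.735 in log2, against 0.887 to 1.308 on the other 13 arrays). The same difference for ACTB was 1.646 on that array, inside the range of the others, and its lowest and highest values were those of the CGS-21680 replicates (1.246 and 2.227). Of 9 plasma cell markers 8 passed the filter, among them SDC1 at a median log2 level of 12.35, and CD27 did not. None of the listed B cell, T cell and myeloid markers passed. COL1A1 of the stromal list (7.07 to 7.43) and HBB of the erythroid list (7.15 to 7.69) passed with narrow ranges.

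Ribosomal protein genes gave some of the highest signals on every array. The median log2 level over the 54 members was 14.97 and 15.01 on the untreated arrays, 14.89 and 14.93 with salmeterol, and 14.90 and 14.96 with CGS-21680. It was 14.976 and 14.998 with low dexamethasone and 14.95 and 14.90 with high dexamethasone. It was 14.83 and 14.90 with salmeterol and low dexamethasone, and 14.90 and 14.94 with CGS-21680 and low dexamethasone. The 14 medians thus lay within 14.829 to 15.005, and the SD between replicates of such a median was 0.0335.

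Of the 54 members, 46 had a mean log2 level of at least 14 and 7 of at least 16. The highest value of any probe set was 16.92 to 17.321 on an array, so many members sat near the top of the scale, where an array can compress differences. The members at the low end were RPL10L (mean 5.53), RPL7L1 (9.63), RPLP2 (10.74), RPL36AL (11.14) and RPL27A (12.10). RPL10L, a testis-type copy of RPL10, had the identical value of 5.539 on 12 of 14 arrays, so its values carry almost no information about treatment. Levels of different probe sets are not comparable with each other and only describe where on the scale each member was read.

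**Figure D1:**
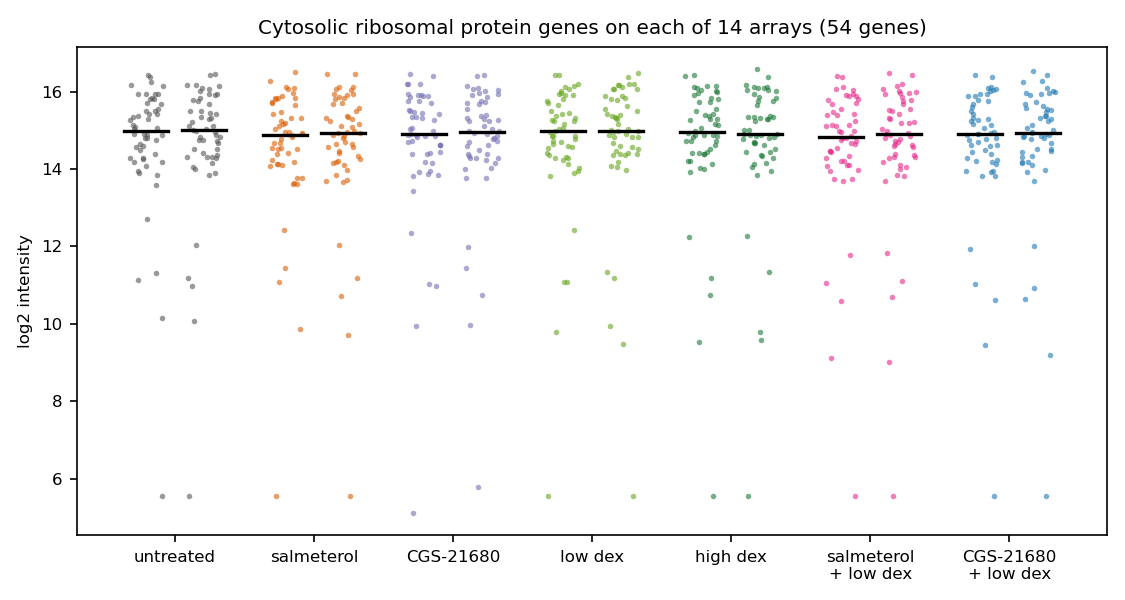
Log2 intensity of the 54 cytosolic ribosomal protein genes on each of the 14 arrays, with replicate 1 left and replicate 2 right in each group; points are genes and black lines are array medians. The medians lie between 14.829 and 15.005, and the lowest point on every array is RPL10L.

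Across the 7 groups the members moved little. The range between the highest and the lowest group mean had a median of 0.195 log2 units over the 54 members, with quartiles of 0.149 and 0.286, and was under 0.3 for 42 of them. The narrowest ranges were those of RPS16 (0.076), RPL41 (0.081) and RPL10L (0.087). RPL41, the smallest protein of the large subunit, read 16.44 and 16.43 on the untreated arrays and 16.37 to 16.50 on the others. The widest ranges were those of RPL7L1 (1.044), RPLP2 (0.873) and RPS25 (0.606). The lowest of the 7 group means was in salmeterol for 27 members and in salmeterol with low dexamethasone for 18. The highest was in high dexamethasone for 21, in untreated cells for 15 and in low dexamethasone for 12. The count for untreated cells includes RPL10L by a tie, since its mean was the same in every group but CGS-21680.

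The effect of each treatment was tested in 11 comparisons with limma, in a model over all 14 arrays with Benjamini-Hochberg adjustment over the 9301 genes. A gene counts as called at an adjusted p under 0.05. In this model none of the 51 standard members was called in any of the 11 comparisons. The only member called was RPL7L1, lower in 4 of them. Other settings called some standard members with salmeterol and low dexamethasone against untreated cells. With no filter these were RPL27 (-0.196, adjusted p = 0.00896, limma), RPL14 (-0.173, 0.0143) and RPL38 (-0.114, 0.0371). With trended, robust variances they were RPL27 (adjusted p = 0.0199, limma) and RPL14 (0.0455). The shares of all genes called in those settings are not given here.

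With salmeterol against untreated cells, 0 of 54 members were called, against 5.97% of all genes. At an unadjusted p under 0.05 there were 5, all lower, and the smallest adjusted p in limma was 0.14, for RPL35A (a large subunit protein; difference -0.29 ± 0.10, SE). With CGS-21680, 0 of 54 were called, against 0.656% of all genes, and 0 had an unadjusted p under 0.05. With low dexamethasone, 0 were called, against 4.66%, and 1 had an unadjusted p under 0.05. With high dexamethasone, 1 was called (lower), against 8.58%, and 3 had an unadjusted p under 0.05.

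With salmeterol and low dexamethasone against untreated cells, 1 of 54 was called (lower), against 24.6% of all genes. With CGS-21680 and low dexamethasone, 1 was called (lower), against 15.8%. Set against low dexamethasone alone, adding salmeterol gave 1 call (lower), against 14.4%, and adding CGS-21680 gave 0, against 3.4%. High against low dexamethasone gave 0, against 0% of all genes. The interactions, which ask whether an agonist acts differently beside low dexamethasone, gave 0 for salmeterol (1.61% of all genes) and 0 for CGS-21680 (0.151%). At an unadjusted p under 0.05 these 7 comparisons had 3, 1, 3, 1, 0, 0 and 0 members.

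The precision allows bounds. The 95% interval of the difference lay within 1 log2 unit (2-fold) either way for 51 to 54 of the 54 members, depending on the comparison. It lay within 0.5 log2 units for 46 members with salmeterol, 52 with CGS-21680, 50 with low dexamethasone, 46 with high dexamethasone, 50 with salmeterol and low dexamethasone, and 51 with CGS-21680 and low dexamethasone. The spread of each gene sets how small a change can be called, and with 2 arrays per group small differences of single members can go uncalled. For 2 arrays against 2 the smallest p an exact permutation test can give is 0.333.

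**Figure D2:**
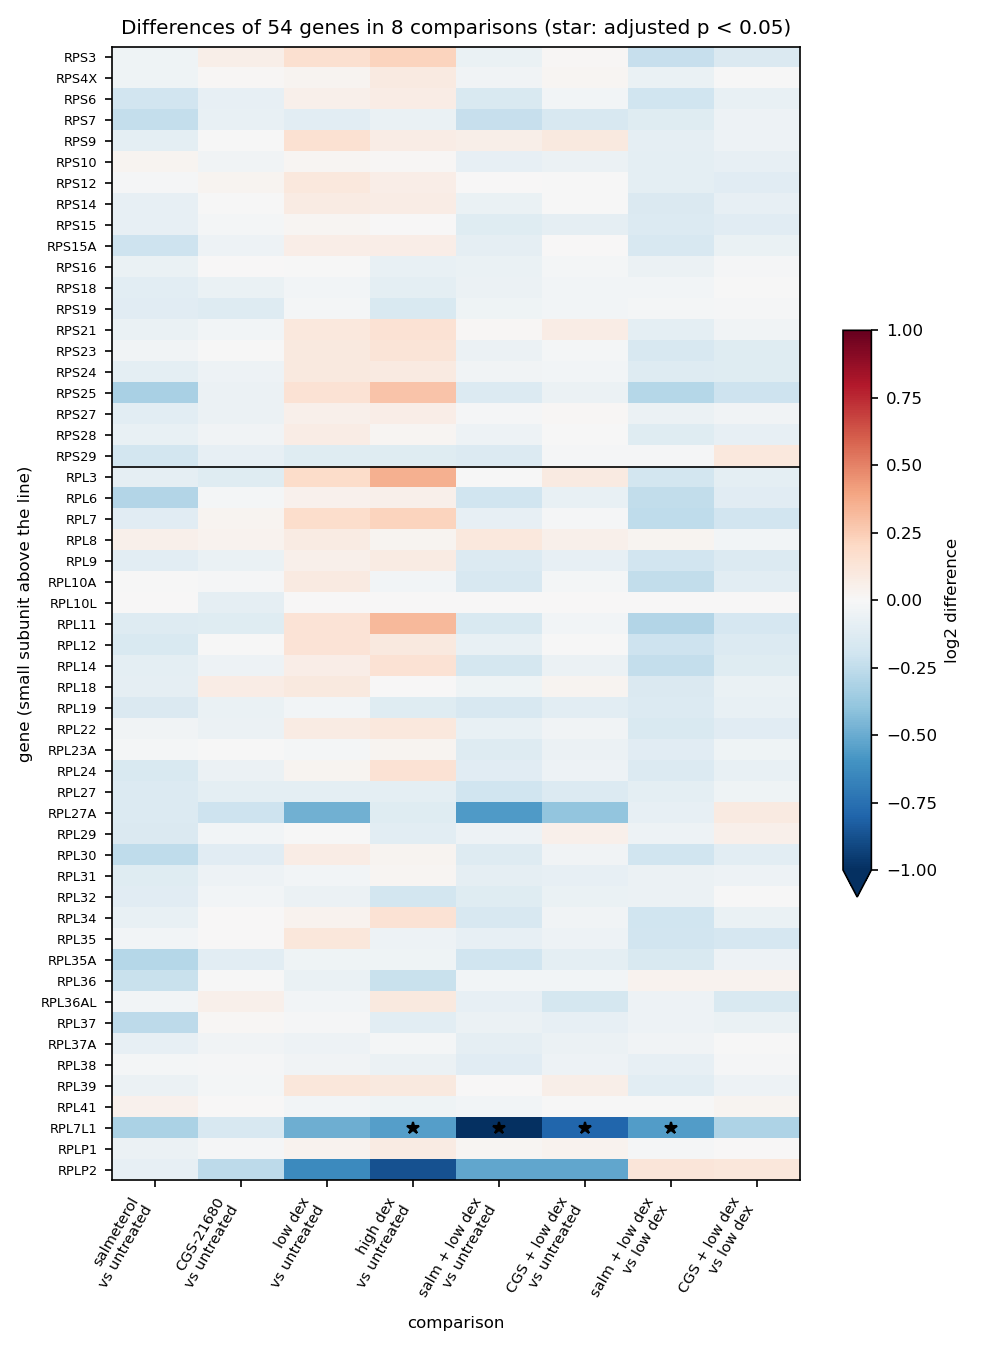
Log2 difference of each of the 54 genes (rows, small subunit genes above the line) in 8 comparisons (columns), on a colour scale from -1 to 1; a star marks an adjusted p under 0.05 in limma. The stars are confined to the RPL7L1 row, and most other cells are pale.

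Small differences in 1 direction were shared by most members in the comparisons with salmeterol. Against untreated cells, the salmeterol difference was negative for 50 of 54 members and the median was -0.0986, beside 60.5% negative and a median of -0.063 over all genes. This direction depends on the scaling: when each array was centred on its own median of tested genes, the median over members was 0.0276. Among 114 other genes with a mean log2 level of at least 13, the median was 0.0064. Both salmeterol arrays lay below both untreated arrays for 30 of 54 members and for 33.6% of all genes.

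Beside low dexamethasone, adding salmeterol gave a negative difference for 51 of 54 members, with a median of -0.1162, against 51.3% negative and -0.0033 over all genes. With centred arrays the median was -0.0773, and among the 114 other high-signal genes it was -0.0401. Both arrays with the combination lay below both low dexamethasone arrays for 34 of 54 members, against 29.1% of all genes. The medians were close in the small subunit (-0.1107, 20 genes) and the large subunit (-0.122, 34 genes). Without low dexamethasone replicate 1 the median over members was -0.161, and without replicate 1 of the combination it was -0.068. Neither the members nor these shares are independent of each other, and no test was made over the list.

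Against untreated cells, salmeterol with low dexamethasone gave a negative difference for 48 of 54 members (median -0.0797; all genes 50.5% and -0.0009), with both arrays lower for 30, against 31.6% of all genes. CGS-21680 alone gave 42 negative (median -0.0311; all genes 45.2% and 0.0142), with both arrays lower for 10, against 13.8%. CGS-21680 with low dexamethasone gave 42 negative (median -0.0291; all genes 47.7% and 0.0027), with both arrays lower for 13, against 25.3%. Beside low dexamethasone, adding CGS-21680 gave 46 negative (median -0.0671; all genes 48.8% and 0.0019), with both arrays lower for 18, against 19.8%. Among the 114 other high-signal genes the medians in these comparisons, in the order given, were -0.0482, 0.0175, -0.0203 and -0.0134. The comparisons share their untreated or low dexamethasone arrays, so their values are not independent of each other.

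Dexamethasone alone gave median differences slightly on the other side of 0. Neither was above 0.0335, the SD between replicates of an array's median level, which is a different measure. The median was 0.0334 at the low dose, with 32 of 54 members positive and both arrays higher for 5, against 22.3% of all genes, and lower for another 5, against 23.3%. At the high dose it was 0.0251, with 33 positive and both arrays higher for 18, against 23.3%, and lower for 14, against 24.1%. Over all genes the medians were 0 at the low dose (49.2% negative) and -0.0019 at the high dose (50.7% negative). Under quantile normalization the low-dose median over members was -0.00294, and without low dexamethasone replicate 2 it was -0.00959. The median levels themselves did not rise at the high dose. They were 14.948 and 14.897 there, below both untreated arrays (14.974 and 15.005). The median differences against untreated cells with CGS-21680 alone (-0.0311) and with its combination (-0.0291) were also within 0.0335 of 0.

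**Figure D3:**
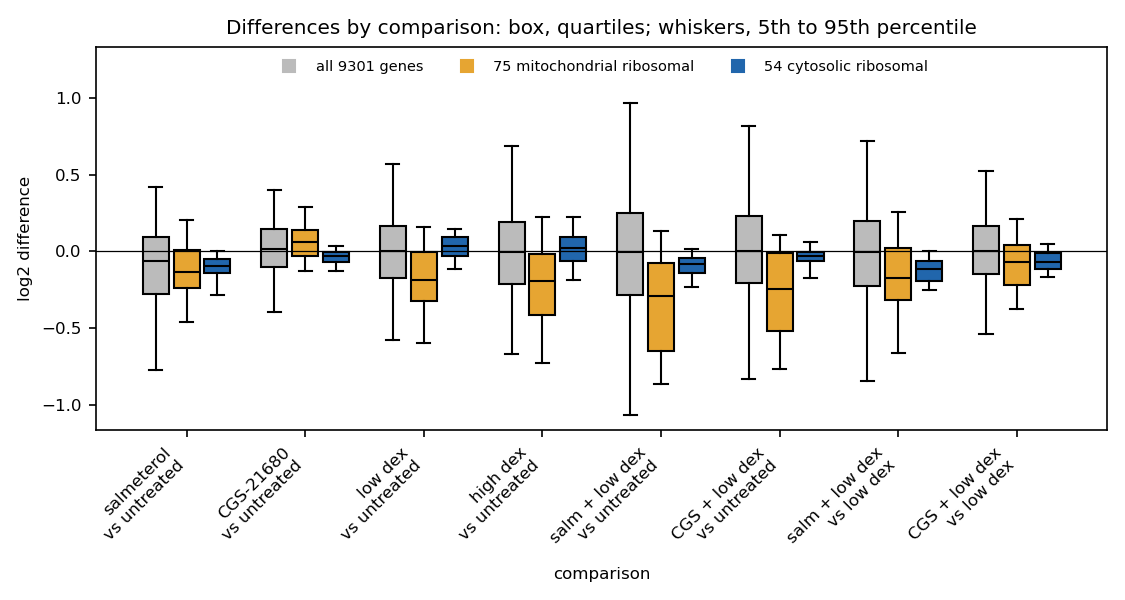
Distribution of log2 differences in 8 comparisons for all 9301 tested genes (grey), 75 mitochondrial ribosomal protein genes (orange) and the 54 cytosolic ribosomal protein genes (blue); boxes give quartiles and medians, whiskers the 5th to 95th percentile. The blue boxes are narrow and near 0 in every comparison, while the orange median reaches -0.2944 with salmeterol and low dexamethasone.

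RPL7L1, a relative of RPL7 that acts in the assembly of the large subunit rather than in the finished ribosome, was the member with a clear response. It was read by a single probe set, of the kind whose probes can match more than 1 transcript (suffix x_at), as were 15 members in all. Its log2 level was 10.14 and 10.08 on the untreated arrays, 9.94 and 9.96 with CGS-21680, 9.86 and 9.72 with salmeterol, 9.78 and 9.47 with low dexamethasone, and 9.53 and 9.58 with high dexamethasone. It was 9.45 and 9.18 with CGS-21680 and low dexamethasone, and 9.12 and 9.01 with salmeterol and low dexamethasone. The untreated arrays were the highest of the 14 and the arrays with salmeterol and low dexamethasone the lowest. Neighbouring groups overlapped between salmeterol and low dexamethasone and between the 2 dexamethasone doses.

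RPL7L1 fell with salmeterol and low dexamethasone by 1.04 ± 0.13 on the log2 scale against untreated cells, which is 2.06-fold (adjusted p = 0.000332, limma). With CGS-21680 and low dexamethasone it fell by 0.79 ± 0.13, or 1.73-fold (adjusted p = 0.00272, limma). With high dexamethasone it fell by 0.55 ± 0.13, or 1.46-fold (adjusted p = 0.0278, limma). Adding salmeterol to low dexamethasone lowered it by a further 1.47-fold (difference -0.56 ± 0.13, adjusted p = 0.017, limma).

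Low dexamethasone alone gave a difference of -0.49 ± 0.13 for RPL7L1 that was not called (adjusted p = 0.0652, limma). Salmeterol alone gave -0.32 (adjusted p = 0.191), CGS-21680 alone -0.16 (0.869), and CGS-21680 beside low dexamethasone -0.31 (0.284), with no call in limma. Neither interaction was called: -0.24 ± 0.18 for salmeterol (adjusted p = 0.707, limma) and -0.15 for CGS-21680 (adjusted p = 1). An action of salmeterol on RPL7L1 that depends on dexamethasone was therefore not shown.

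The 2 weaker calls rest on few arrays. The call for high dexamethasone was lost without either untreated array or either high dexamethasone array (adjusted p 0.0731 to 0.141 in limma). Without the high dexamethasone replicate 2 array described above, the difference was -0.576 (adjusted p = 0.0963, limma). The call for adding salmeterol to low dexamethasone was lost without low dexamethasone replicate 1 (adjusted p = 0.109, limma), without replicate 1 of the combination (0.0569) and without replicate 2 of it (0.0918).

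The acidic proteins RPLP1 and RPLP2 form the flexible stalk that recruits translation factors to the ribosome. RPLP2 had the widest spread of the standard members. Its log2 level was 11.31 and 10.99 on the untreated arrays, 11.43 and 10.71 with salmeterol, 11.04 and 10.75 with CGS-21680, 11.08 and 9.94 with low dexamethasone, and 10.76 and 9.80 with high dexamethasone. It was 10.58 and 10.68 with salmeterol and low dexamethasone and 10.61 and 10.64 with CGS-21680 and low dexamethasone. The 2 lowest readings were the second replicates of the dexamethasone groups, each about 1 log2 unit below its partner. High dexamethasone gave a difference of -0.87 ± 0.40 from untreated cells (adjusted p = 0.243, limma) and low dexamethasone -0.64 ± 0.40 (adjusted p = 0.5, limma). The GAPDH control difference was 0.735 on the second high dexamethasone array and 0.988 on the second low dexamethasone array, that of ACTB was 1.646 and 1.6, both inside the range of the other arrays, and their part in these readings was not tested. RPLP1 read 16.39 and 16.47 on the untreated arrays and 16.28 to 16.58 on the others, with no call.

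RPL27A, a large subunit protein, had a similarly wide spread. It read 12.70 and 12.04 on the untreated arrays and 11.77 and 11.84 with salmeterol and low dexamethasone, so those groups did not overlap. The difference of -0.56 ± 0.33 was not called (adjusted p = 0.266, limma). With low dexamethasone it read 12.42 and 11.35, a gap between replicates larger than the difference between the group means.

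RPL11, which with RPL5 and the 5S RNA forms the particle that binds MDM2 and stabilises p53 when ribosome assembly fails, had its highest group mean with high dexamethasone. It read 14.19 and 14.29 on the untreated arrays, 14.28 and 14.48 with low dexamethasone, and 14.44 and 14.69 with high dexamethasone. It read 14.12 and 14.05 with salmeterol and low dexamethasone. The high dexamethasone difference of 0.33 ± 0.13 was not called (adjusted p = 0.17, limma), nor was that of -0.29 ± 0.13 on adding salmeterol to low dexamethasone (adjusted p = 0.185, limma). RPL3, which lies close to the peptidyl transferase centre, gave 0.35 ± 0.14 with high dexamethasone (adjusted p = 0.169, limma), with readings of 13.60 and 13.85 untreated and 13.99 and 14.16 at the high dose. RPS7, also an MDM2 binder, gave -0.24 ± 0.10 with salmeterol (adjusted p = 0.219, limma).

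RPS6, the substrate of the S6 kinases, read 14.74 and 14.75 on the untreated arrays, 14.52 and 14.58 with salmeterol, and 14.54 and 14.65 with salmeterol and low dexamethasone. The salmeterol arrays lay below the untreated ones, but the difference of -0.20 ± 0.10 was not called (adjusted p = 0.346, limma). RPS25, a small subunit protein involved in initiation on some viral and cellular RNAs, read 14.09 and 14.16 untreated, 13.77 and 13.84 with salmeterol, and 14.21 and 14.61 with high dexamethasone. Neither difference, -0.32 ± 0.18 with salmeterol (adjusted p = 0.366, limma) or 0.28 ± 0.18 with high dexamethasone (adjusted p = 0.401, limma), was called. RPS3, at the entry of the messenger RNA channel, gave 0.06 ± 0.11 with CGS-21680 and -0.23 on adding salmeterol to low dexamethasone.

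RPL14, a large subunit protein, came closest to a call among the standard members. It read 14.55 and 14.57 with low dexamethasone and 14.35 and 14.31 with salmeterol and low dexamethasone. The difference of -0.24 ± 0.08 was not called in the model used here (adjusted p = 0.0738, limma). It was called with no filter on low values (adjusted p = 0.00589) and with trended, robust variances (adjusted p = 0.0169).

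**Figure D4:**
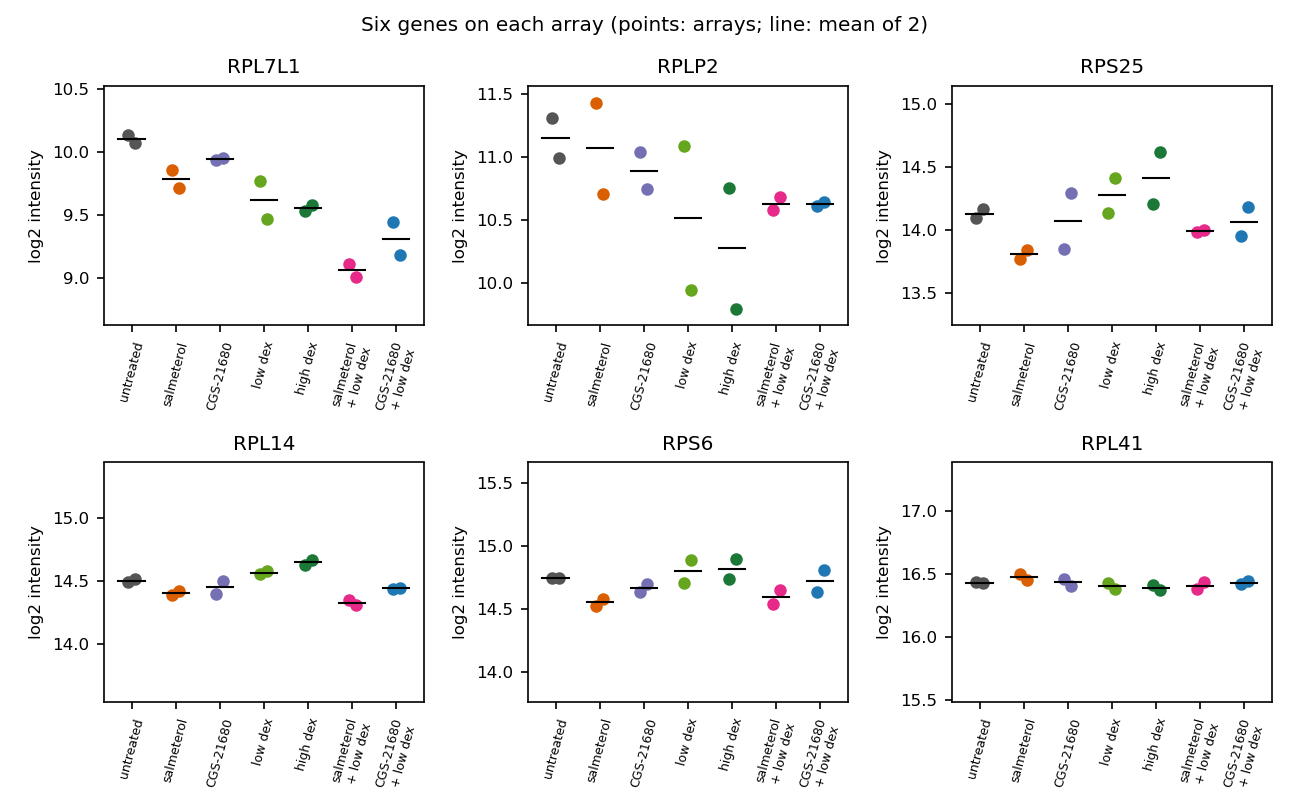
Log2 intensity of RPL7L1, RPLP2, RPS25, RPL14, RPS6 and RPL41 on each array by group; points are arrays, lines the mean of 2, and every panel spans an equal range. RPL7L1 steps down to its lowest readings with salmeterol and low dexamethasone, and RPL41 is flat. RPLP2 replicates lie far apart with either dose of dexamethasone alone and with salmeterol alone, and close together with the combinations.

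Inherited loss of a copy of certain ribosomal protein genes causes Diamond-Blackfan anaemia, and some are lost or mutated in cancers. Of 16 listed Diamond-Blackfan genes 11 were tested, RPS19, RPS24, RPS7, RPS10, RPS29, RPS28, RPS27, RPL11, RPL35A, RPL31 and RPL27. In the model used here 0 of them were called in any comparison, beside 0% to 24.6% of all genes, depending on the comparison. With so few genes, a count of 0 does not set them apart where the share of all genes is small. RPS19, the gene most often affected, read 15.55 and 15.49 untreated and 15.29 to 15.55 on the other arrays. Of 6 listed genes mutated in cancers 4 were tested, RPL11, RPL22, RPS15 and RPS14, again with 0 calls beside the same shares. RPS14, in the region deleted in the 5q- syndrome, read 15.26 and 15.33 untreated and 15.13 to 15.42 elsewhere. The median difference of the 11 Diamond-Blackfan genes on adding salmeterol to low dexamethasone was -0.0993, beside -0.1162 for all members.

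For 26 members more than 1 probe set passed the filter, and the results above use the one with the highest mean. In all, 96 member probe sets passed, so 42 were second readings, 14 of them with a mean log2 level below 8. Each was also tested on its own among 15606 probe sets, a fit chosen after the data had been seen. With salmeterol and low dexamethasone against untreated cells 4 of 96 were called, all lower, against 21.1% of all probe sets. With CGS-21680 and low dexamethasone 3 were called (12.6%), with salmeterol alone 1 (4.77%), with high dexamethasone 1 (6.92%), and on adding salmeterol to low dexamethasone 5 (11.7%), again all lower. Apart from RPL7L1 these calls came from dim second probe sets of RPS24, RPS28, RPL37 and RPS15A, whose bright probe sets were not called.

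RPS24, a small subunit protein, had the largest of these differences. Its dim probe set read 7.77 and 7.52 on the untreated arrays, 7.12 and 6.54 with salmeterol, 5.89 and 7.32 with CGS-21680, 7.18 and 6.65 with low dexamethasone, 6.83 and 6.24 with high dexamethasone, 4.69 and 4.87 with salmeterol and low dexamethasone, and 6.10 and 5.30 with CGS-21680 and low dexamethasone. Both arrays with salmeterol and low dexamethasone were below all others. The RPS24 dim probe set fell by 2.87 ± 0.46 against untreated cells (adjusted p = 0.00194, limma) and differed by -2.14 ± 0.46 from low dexamethasone (adjusted p = 0.0156, limma). With CGS-21680 and low dexamethasone it fell by 1.95 ± 0.46 (adjusted p = 0.0221, limma), a call lost without either untreated array or without replicate 2 of the combination (adjusted p 0.0762 to 0.137). The call for the salmeterol combination against untreated cells held under the 20 alternatives run for it, and the 2 other calls were lost with only the groups compared in the fit or with no filter. The bright RPS24 probe set read 15.94 and 16.01 untreated and 15.93 and 15.95 with salmeterol and low dexamethasone, a difference of -0.04 ± 0.10.

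The dim probe set of RPS28 read 7.17 and 7.21 on the untreated arrays, 5.80 and 6.33 with salmeterol and low dexamethasone, and 6.46 and 6.31 with CGS-21680 and low dexamethasone. It fell by 1.13 ± 0.16 with the salmeterol combination (adjusted p = 0.00101, limma) and by 0.81 ± 0.16 with the CGS-21680 combination (adjusted p = 0.0104, limma), the latter call being lost without either untreated array or replicate 2 of that combination (adjusted p 0.0546 to 0.0653). With only the groups compared in the fit, neither was called (adjusted p = 0.0669 and 0.059, limma). The bright RPS28 probe set differed by -0.05 ± 0.09 in the salmeterol comparison. RPL37 had 4 probe sets past the filter. A dim one read 7.10 and 6.85 with low dexamethasone and 5.25 and 5.88 with salmeterol added. It fell by 1.41 ± 0.21 (adjusted p = 0.00245, limma), a call lost with only the groups compared (0.106). Another dim one read 6.31 and 6.54 with low dexamethasone and 6.21 and 6.13 with salmeterol added. The last dim one read 5.19 and 5.14, and 5.04 and 4.50. Neither of these was called in any comparison. With salmeterol alone the called RPL37 probe set read 5.67 and 5.58 against 6.63 and 6.38 untreated, a difference of -0.88 ± 0.21 (adjusted p = 0.0472, limma). This call was lost when any of 12 of the 14 arrays was left out (adjusted p 0.0566 to 0.243), under quantile normalization (0.0857) and with centred arrays (0.0818).

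The dim probe set of RPS15A fell by 0.81 ± 0.20 on adding salmeterol to low dexamethasone (adjusted p = 0.0291, limma), with readings of 5.06 and 4.68 and of 3.99 and 4.13. That call was lost without low dexamethasone replicate 1 (adjusted p = 0.174, limma) and without either array of the combination (0.15 and 0.0814). The RPS24 call against low dexamethasone was also lost without any of 3 of these 4 arrays (adjusted p 0.0601 to 0.099). What transcripts the dim probe sets detect is not given in the annotation used here.

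**Figure D5:**
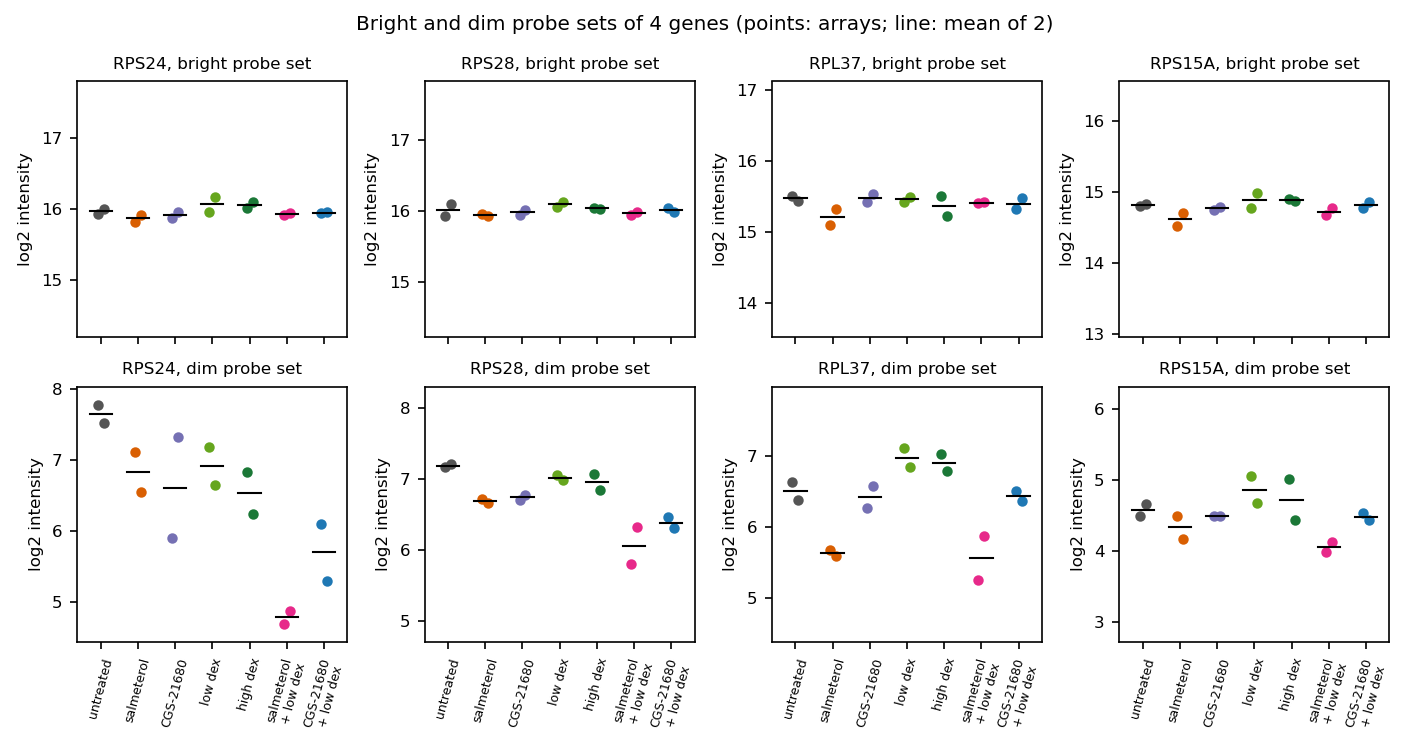
Log2 intensity of the bright (top) and the called dim (bottom) probe set of RPS24, RPS28, RPL37 and RPS15A on each array. Points are arrays, lines the mean of 2, and every panel spans an equal range. The bright probe sets are flat, and the dim probe sets shown are lowest with salmeterol and low dexamethasone. Other dim probe sets of RPL37 are not shown.

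Genes around the ribosome were followed through lists. Among paralogs of ribosomal proteins, a list of 7 that also holds the members RPL7L1 and RPL10L, 6 were tested and 4 fell with salmeterol and low dexamethasone against untreated cells (median -0.5484), which is 66.7%, beside 24.6% of all genes. Besides RPL7L1 these were RPL26L1 (-0.72 ± 0.10, adjusted p = 0.000686, limma), RPL22L1 (-0.63 ± 0.15, adjusted p = 0.0124, limma) and RPL39L (-0.46 ± 0.13, adjusted p = 0.0319, limma). The last 2 calls were lost when 2 and 3 of the 14 arrays, respectively, were left out in turn. RPL26L1 read 9.77 and 9.59 untreated and 8.89 and 9.03 with the combination. In the same list 1 fell with high dexamethasone (RPL7L1, beside 8.58% of all genes), 2 with CGS-21680 and low dexamethasone (RPL7L1 and RPL26L1, beside 15.8%), and 3 on adding salmeterol to low dexamethasone (these and RPL39L, beside 14.4%), and none rose in any comparison. The RPL26L1 call with CGS-21680 and low dexamethasone was lost without untreated replicate 1 or either array of the combination (adjusted p 0.092 to 0.169, limma). On adding salmeterol, RPL26L1 was lost without low dexamethasone replicate 2 or replicate 1 of the combination, and RPL39L without replicate 1 of either group, beside the losses of RPL7L1 given above. Each paralog takes the place of a standard protein or resembles it closely, and the standard members RPL22 and RPL39 were not called.

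In the list of other translation genes with TOP starts 12 of 16 were tested. With high dexamethasone 1 was called (8.33%), near the 8.58% of all genes. The count was also 1 with salmeterol and low dexamethasone against untreated cells (24.6% of all genes). It was 1 again on adding salmeterol to low dexamethasone (14.4%). No gene of the list was called in the other comparisons, where 0% to 15.8% of all genes were. EIF4B, an initiation factor, rose with high dexamethasone by 0.59 ± 0.16 (adjusted p = 0.0486, limma) and fell on adding salmeterol to low dexamethasone by 0.58 ± 0.16 (adjusted p = 0.0361, limma). PABPC1, the cytoplasmic poly(A)-binding protein, fell with salmeterol and low dexamethasone by 0.33 ± 0.09 (adjusted p = 0.0251, limma). Leaving out single arrays ended the EIF4B calls for 13 and 7 of 14 arrays and the PABPC1 call for 4, and centring the arrays ended all of them. The median of the list was 0.1963 with low dexamethasone and -0.1948 on adding salmeterol to it.

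Of 13 chaperones and importers that deliver newly made ribosomal proteins, 5 fell with salmeterol and low dexamethasone, 3 with CGS-21680 and low dexamethasone, and 1 with either dose of dexamethasone, with none rising. These are 38.5%, 23.1% and 7.69% of the list, beside 24.6%, 15.8%, and 4.66% and 8.58% (low and high dose) of all genes. The counts for the combinations include PDCD2, whose call was lost when any of 9 (salmeterol) or 12 (CGS-21680) of the 14 arrays was left out, and TNPO1, whose calls were lost when probe sets of a gene were averaged (adjusted p = 0.132 and 0.124, limma). PDCD2L, linked to the small subunit protein RPS2 and to export of that subunit, read 8.79 and 8.75 untreated, 7.80 and 7.99 with low dexamethasone, and 6.82 and 6.71 with salmeterol and low dexamethasone. With that combination it fell by 2.01 ± 0.13 (adjusted p = 6.44e-06, limma). HEATR3, which helps import RPL5, fell by 1.05 ± 0.18 (adjusted p = 0.00248, limma), and BCCIP, a chaperone of RPL23, by 0.72 ± 0.13 (adjusted p = 0.0038, limma).

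In the list of 12 genes between mTOR and ribosomal protein translation, changes went both ways: with salmeterol and low dexamethasone 2 rose and 3 fell, which is 41.7%, beside 24.6% of all genes. DDIT4, an inhibitor of mTOR complex 1, read 4.92 and 5.46 on the untreated arrays, 7.80 and 7.71 with salmeterol, 13.37 and 13.54 with low dexamethasone, and 14.52 and 14.40 with salmeterol and low dexamethasone. It rose by 8.26 ± 0.39 with low dexamethasone (adjusted p = 6.33e-06, limma). LARP1, the TOP-binding repressor, fell with salmeterol and low dexamethasone by 0.72 ± 0.17 (adjusted p = 0.0118, limma), as did LARP4, which stabilises messenger RNAs, by 0.80 ± 0.17 (adjusted p = 0.0081, limma). RPS6KB1, the kinase of RPS6, fell by 0.97 ± 0.25 (adjusted p = 0.0183, limma). EIF4EBP2, which holds back cap-dependent initiation, rose by 0.47 ± 0.14 (adjusted p = 0.041, limma). When single arrays were left out, the LARP1, LARP4, RPS6KB1 and EIF4EBP2 calls were lost for 3, 1, 4 and 8 of 14 arrays. The LARP4, RPS6KB1 and EIF4EBP2 calls were also lost when probe sets of a gene were averaged. Using no filter ended those of RPS6KB1 and EIF4EBP2, and fitting only the groups compared ended those of LARP1 and EIF4EBP2.

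The ribosome of mitochondria is built from a separate set of nuclear genes, and is given here beside the cytosolic one. Of 75 mitochondrial ribosomal protein genes tested, 31 fell with salmeterol and low dexamethasone against untreated cells and none rose, with a median of -0.2944. That is 41.3%, beside 24.6% of all genes and 1 of 54 cytosolic members. The count was 17 without either untreated array, 12 without replicate 1 of the combination and 24 without its replicate 2, and with centred arrays 28 fell and 1 rose. The count of rising genes was also 1 without either high dexamethasone array or either array with CGS-21680 and low dexamethasone. With CGS-21680 and low dexamethasone 15 fell (20%, beside 15.8% of all genes), a count of 6 or 7 without an untreated array, and 8 or 9 without an array of the combination. It was 1 with only the groups compared in the fit. With high dexamethasone 6 fell (8%, beside 8.58%). That count was 3 without untreated replicate 1, 4 without replicate 2 of either group, 16 without high dexamethasone replicate 1, 12 under quantile normalization, 10 with centred arrays, 10 with trended, robust variances and 0 with only the groups compared. With low dexamethasone 4 fell (5.33%, beside 4.66%; 2 to 5 when single arrays were left out). With salmeterol 1 fell (1.33%, beside 5.97%; 0 to 2) and with CGS-21680 0. On adding salmeterol to low dexamethasone 9 fell (12%, beside 14.4%), against 3 and 2 without low dexamethasone replicates 1 and 2, 1 and 6 without replicates 1 and 2 of the combination, and 6 without either CGS-21680 array. It was 1 with only the groups compared, 5 with no filter, and 6 lower and 1 higher with centred arrays. The shares with either dose of dexamethasone alone and on adding salmeterol thus lay near those of all genes. On adding CGS-21680 0 fell. MRPL14, a protein of the mitochondrial large subunit, read 10.55 and 10.31 untreated, 9.54 and 9.56 with low dexamethasone, and 9.53 and 9.59 with salmeterol and low dexamethasone. MRPL17, of the same subunit, fell by 0.87 ± 0.10 with salmeterol and low dexamethasone (adjusted p = 0.000269, limma). The difference between the mitochondrial and cytosolic sets was not tested, and the cytosolic genes were read near the top of the scale.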

How the data were processed

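RNA from MM1S cells was hybridised to Affymetrix 3′ expression arrays, 2 per group. The authors deposited an intensity for each of 54675 probe sets on each array. GCRMA, which corrects background, normalizes and summarises probes, is named in the submitters' processing notes, without a version. These values were taken as linear, which is inferred from the values, and the log2 of the deposited intensity was used. Of the probe sets, 41097 had 1 symbol in the platform annotation, 1801 had several and 11777 none; only the former were named. The probe set with the highest mean stood for its gene. Tests used limma 3.58.1 (R 4.3.3) on a model of 7 group means, 7 residual and 2.3 prior degrees of freedom, checked on simulated data. Errors beside differences are standard errors. The array number limits precision.

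The members and lists were chosen with earlier results of these data known. Genes named are called members, the 2 highest and 2 lowest differences of each comparison, preset members and the 3 widest and 3 narrowest ranges. Up to 3 called genes per list and comparison were also named. Members with an unadjusted p under 0.05, further called genes of the lists and levels of single genes were added after their values were seen. Alternatives were other scalings, filters, probe set rules, variances, a replicate block and leaving out each array; those for single probe sets and genes of other lists were added after seeing the data. The labels do not say what arrays of the same number share, so numbers were not used as pairs in the main model. Deviations of same-numbered arrays had correlations of -0.173 to 0.255 over 21 pairs of groups (median 0.105, 12 above 0.1). These values do not exclude a shared part, and a replicate block is among the alternatives. Promoters are from RefSeq, GRCh38.p14.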

Additional observations from a re-analysis of the deposited data

Results flagged for a closer look

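Probe sets annotated to a ribosomal protein gene together with small RNAs stood outside the comparisons above, because such a probe set names no single gene. Of the 12 that passed the filter, 1 was lower with salmeterol than in untreated cells (log2 difference -0.443 ± 0.107, adjusted p = 0.0429, limma). The same probe set was lower with salmeterol and low dexamethasone than in untreated cells (-0.377, adjusted p = 0.0295, limma). A different one was lower on adding salmeterol to low dexamethasone (-0.48, adjusted p = 0.0194, limma). The count was 1 of 12 in each of these comparisons, in the order given, beside 5.97%, 24.6% and 14.4% of all genes in the main model. Such counts do not set these probe sets apart from all genes. They came up as signals in data that the comparisons do not use.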

How the results depend on the processing

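Each count of called members and each median was recomputed under 24 alternatives. The share of all genes called can change with the setting too, and is not given here for the alternatives. A changed count is therefore not a result about the members alone. The same holds for the mitochondrial counts under alternatives given above. With arrays centred on their medians, the median member difference was 0.0276 with salmeterol against untreated cells, -0.0457 with salmeterol and low dexamethasone against untreated cells, -0.0773 on adding salmeterol to low dexamethasone and -0.107 for the salmeterol interaction, and the counts for high dexamethasone and for adding salmeterol to low dexamethasone were 0. Quantile normalization gave medians of -0.00294 with low dexamethasone and -0.135 with salmeterol and low dexamethasone. With the mean of a gene's probe sets, salmeterol and low dexamethasone gave 4 calls and a median of -0.114. CGS-21680 and low dexamethasone then gave 3 calls, and adding salmeterol to low dexamethasone 5. Besides RPL7L1 these were genes with the dim probe sets described above. With no filter the counts were 0 for high dexamethasone, 4 for salmeterol and low dexamethasone, and 2 for adding salmeterol. With trended, robust variances they were 3 and 2 for the latter comparisons. Besides RPL7L1, salmeterol and low dexamethasone called RPL14 and RPL27 in both of these settings, and RPL38 with no filter. Adding salmeterol called RPL14 in both. Without x_at probe sets, or without the paralogs (a choice made after seeing the data), all 4 comparisons with a call gave 0, since RPL7L1 was then not counted. With only the groups compared in the fit, the count was 0 for high dexamethasone, for CGS-21680 and low dexamethasone, and for adding salmeterol to low dexamethasone. With the shared small RNA probe sets added, also after seeing the data, the counts were 1 with salmeterol, 2 with salmeterol and low dexamethasone and 2 on adding salmeterol. With a replicate block, low dexamethasone gave 1 call (RPL7L1, adjusted p = 0.0371, limma), and no other count moved by over 1.5 times.

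Leaving out 1 array at a time gave medians of -0.115 to -0.0639 with salmeterol, -0.00959 to 0.0765 with low dexamethasone, 0.0165 to 0.0691 with high dexamethasone, -0.122 to -0.0471 with salmeterol and low dexamethasone, -0.161 to -0.068 on adding salmeterol, -0.115 to -0.0289 on adding CGS-21680, -0.0456 to 0.0328 for high against low dexamethasone, -0.0744 to 0.0279 for the salmeterol interaction and -0.0698 to 0.00317 for that of CGS-21680. Counts were 0 to 1 for high dexamethasone and for adding salmeterol to low dexamethasone. Apart from the changes by construction named above, the cause was not tested. Signals near the top of the scale limit what small differences of the members can show.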
